A study of Mus musculus with 14 samples.

Results

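The 41 genes described here encode the machinery that copies DNA in S phase and the enzymes that supply its nucleotides. They are a list of gene names drawn up with earlier results of these data known, with no threshold on a measured value, and all 41 are among the 36413 gene names that the arrays report. The arrays followed a mouse mammary carcinoma line, D2A1, and mouse embryonic fibroblasts (MEFs), which were grown together for 72 hours and then separated by flow sorting, or grown on their own. Each of the 7 groups had 2 arrays. D2A1 tumor cells came from culture with Hsf1 -/- MEFs (called null here), from culture with Hsf1 +/+ MEFs (called wild type, WT), or from culture alone. Null MEFs and WT MEFs each came from culture with D2A1 cells or from culture alone. Medium was DMEM with 10% FCS in every group. Hsf1 encodes the heat shock transcription factor, and the series asked how its presence in fibroblasts bears on what each cell type does to the other. MEFs that served as partners of the profiled tumor cells had received mitomycin C, a DNA crosslinker that stops cells from replicating, at 10 ug/ml for 2 hours. Expression in those treated partners is not analysed here, and the labels mention no such treatment of the MEFs that were themselves profiled. The labels do not say how many MEF stocks or animals lie behind a genotype, or that replicates came from separate cultures, so the p-values describe no more than the spread of these arrays.

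Before replication starts, Cdc6 and Cdt1 help to load the Mcm2 to Mcm7 helicase ring onto origins, a step called licensing. Mcm10 and the GINS complex (Gins1 to Gins4) help to turn the loaded ring into a working helicase, and Rpa1 to Rpa3 cover the single strands it exposes. Primase and DNA polymerase alpha (Prim1, Prim2, Pola1, Pola2) lay down primers, the clamp loader (Rfc1 to Rfc5) places the sliding clamp Pcna, and the catalytic subunits of polymerases delta and epsilon (Pold1, Pole) extend the strands. Many of these genes are transcribed as cells enter S phase under E2F factors, which the retinoblastoma protein holds back and which cyclin E (Ccne1, Ccne2) with its kinase helps to release. In tumor cells and in fibroblasts in culture, such genes are used as a gauge of how much of a population is cycling.

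Because E2F control is the known link between these genes, their promoters were searched for its recognition letters. The motifs were TTTCCCGC, TTTCGCGC, TTTGCCGC and TTTGGCGC on both strands, so a palindromic core can give overlapping matches. RefSeq promoter windows (GRCm38.p6), from 250 bases before the start site to 50 after it, existed for 33 of the 41 members. At least 1 match lay in the window of 12 of these 33 genes, or 36.4%, against 2.6% of the 27025 genes with a window. Within the 250 upstream bases alone, 8 of 33 held a match, or 24.2%, against 2.16% of all genes. The 12 were the licensing and helicase genes Cdc6, Cdt1, Gins3, Mcm3, Mcm5, Mcm6 and Mcm7, the polymerase genes Pola1 and Pold1, the clamp loader gene Rfc3, the DNA ligase gene Lig1 and the chromatin gene Uhrf1. The CCAAT box, searched as CCAAT on both strands in the whole window, was in 19 of 33 members, or 57.6%, against 41.1% of all genes. A match describes letters in a window and is not evidence of binding. Of the upstream windows with a match, 4 are shown, 5′ to 3′ in the direction of the gene, because they differ in how the motif is laid out and belong to genes whose levels are described below. Capitals mark the matches to the E2F letters. The Mcm5 window (chr8:75109259-75109508, plus strand) has 2 overlapping matches in the stretch TTTCGCGCCAAA, 153 to 142 bases before the start site. The Mcm6 window (chr1:128359706-128359955, minus strand) has a like overlapping pair and a further single match nearer the start site. In Cdc6 (chr11:98907901-98908150, plus strand) and in Pola1 (chrX:93632156-93632405, minus strand) a single match lies 138 to 131 bases before it.
Mcm5: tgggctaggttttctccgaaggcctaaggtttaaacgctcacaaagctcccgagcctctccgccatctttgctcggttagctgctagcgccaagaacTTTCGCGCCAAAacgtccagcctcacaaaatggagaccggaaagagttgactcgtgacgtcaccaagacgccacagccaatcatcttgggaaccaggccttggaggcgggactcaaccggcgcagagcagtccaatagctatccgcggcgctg
Mcm6: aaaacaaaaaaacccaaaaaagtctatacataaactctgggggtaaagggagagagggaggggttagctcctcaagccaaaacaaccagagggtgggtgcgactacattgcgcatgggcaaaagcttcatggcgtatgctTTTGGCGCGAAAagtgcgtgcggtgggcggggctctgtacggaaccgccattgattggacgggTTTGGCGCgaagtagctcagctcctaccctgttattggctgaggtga
Cdc6: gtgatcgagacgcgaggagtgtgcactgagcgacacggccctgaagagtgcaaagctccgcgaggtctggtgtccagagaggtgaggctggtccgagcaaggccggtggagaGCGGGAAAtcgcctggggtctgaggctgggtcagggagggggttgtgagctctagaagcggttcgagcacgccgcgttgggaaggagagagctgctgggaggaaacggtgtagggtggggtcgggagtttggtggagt
Pola1: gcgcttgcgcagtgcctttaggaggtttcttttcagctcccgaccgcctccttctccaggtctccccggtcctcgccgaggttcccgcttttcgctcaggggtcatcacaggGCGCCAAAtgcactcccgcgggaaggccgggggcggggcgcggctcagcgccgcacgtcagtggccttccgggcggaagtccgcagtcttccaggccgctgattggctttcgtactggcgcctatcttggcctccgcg

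Levels are the log2 values of the authors' value table, which gives 1 value per gene name and array. Across the 14 arrays of this table the lowest correlation between any 2 was 0.935. For 2 of the arrays (replicate A of tumor cells with null MEFs, replicate A of tumor cells alone) the raw scan was unsound, with outlier flags on 36.8% and 32.1% of spots. The other 12 had at most 5.74%, and detection was read from those, where between 53% and 63.4% of spots cleared background. The number of arrays, 2 in each group, limits the precision. Slide 1 carried every A replicate and slide 2 every B replicate. Hsf1 itself measured 10.52 and 10.67 in null MEFs with tumor cells and 10.07 and 9.97 in null MEFs alone, against 12.05 and 12.04 in WT MEFs with tumor cells and 12.01 and 11.69 in WT MEFs alone, so the null arrays were the 4 lowest of the 14. Of 15 fibroblast markers, 10 were well above background in tumor cells alone B, while Dcn, Lum, Thy1, Postn and Twist2 were not, and 14 or 15 were in every MEF sample. Of 14 epithelial markers, 8 were well above background in tumor cells alone B, against 11 on each array of null MEFs alone and 10 and 8 in WT MEFs alone. Epcam and Ovol1, both on that list, were not well above background on any of the 12 arrays, and Cdh1 was not in tumor cells alone B, so these defining epithelial genes were not detected there. The summed level (log2) of the epithelial markers was 16.51 and 16.57 in tumor cells alone, against 12.06 and 12.32 in null MEFs alone and 10.5 and 10.64 in WT MEFs alone. Among markers of cells that should be missing, 4 to 8 of 9 macrophage genes and 2 to 5 of 7 endothelial genes cleared background on the 12 arrays, with Fcgr1 and Tie1 on none of them and Ptprc and Cd68 on 10 each. Summed macrophage markers (log2) lay between 13.15 and 13.58 in tumor cells, against 11.09 and 11.22 in null MEFs with tumor cells, 9.91 and 9.92 in null MEFs alone, 12.24 and 12.37 in WT MEFs with tumor cells and 10.35 and 10.34 in WT MEFs alone, and their part in the results was not tested.

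Of the 41 members, 40 were well above background by at least 1 spot on all 12 sound arrays. The exception was the cyclin E gene Ccne2, which cleared background on 1 array only and was not tested. Its values lay between 4.64 and 5.14 on the 14 arrays. The remaining 40 were among the 25896 gene names tested with limma, and a difference was called when its adjusted p was under 0.05. Of these, Pole is listed in the value table under a probe that cleared background on 1 of the 12 sound arrays. Its other probe cleared it on all 12. On the sound arrays this other probe stood 0.93 higher in tumor cells alone than in null MEFs alone, against 0.12 for Pole in the value table. The group means of a member spanned from 0.22 (Ccne2) to 1.62 (Prim2, the large primase subunit) on the log2 scale, and the median SD between the 2 arrays of a group was 0.092. Of the 41, 16 had their highest group mean in tumor cells alone and 13 in null MEFs alone. The lowest mean fell in WT MEFs with tumor cells for 24 members and in tumor cells with null MEFs for 10. The median deviation of the 41 from their own means over the arrays was 0.05 and -0.08 in tumor cells with null MEFs, 0.08 and 0.13 in tumor cells with WT MEFs, and 0.28 and 0.27 in tumor cells alone. It was -0.04 and 0.02 in null MEFs with tumor cells and 0.16 and 0.12 in null MEFs alone. WT MEFs gave -0.38 and -0.32 with tumor cells and -0.12 and -0.13 alone. Within each cell type and genotype, both co-culture arrays were therefore below both arrays of the cells grown alone.

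**Figure D1:**
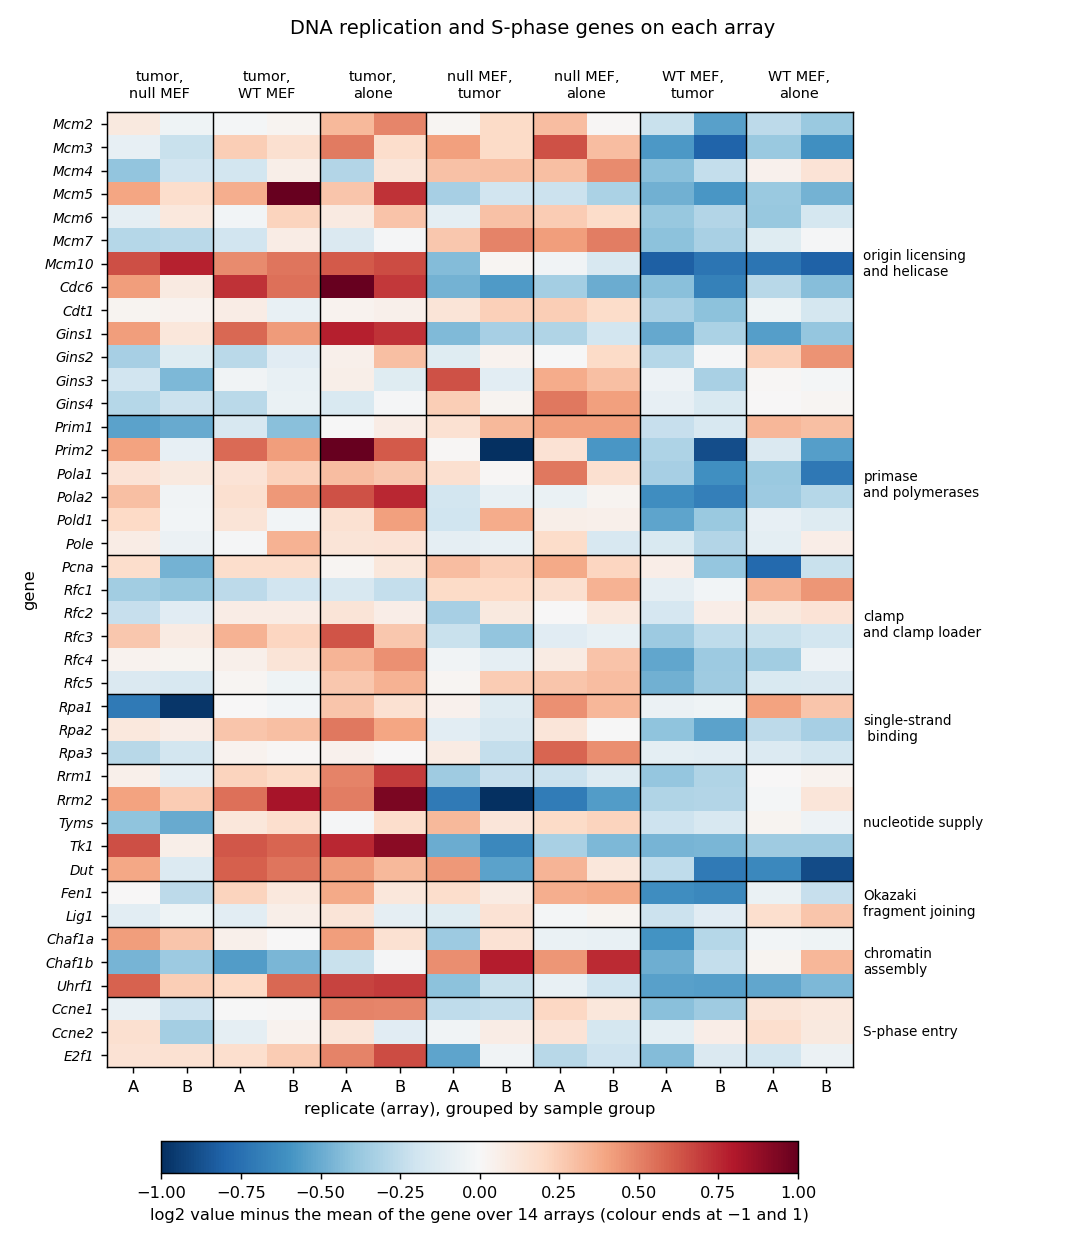
Heat map of the 41 members (rows, grouped by role) on the 14 arrays (columns, A and B of each group), coloured by the log2 value minus the gene's mean over the arrays. Rows such as Cdc6, Gins1, Tk1 and Rrm2 are red in the tumor cell columns, while Chaf1b and Mcm7 are red in the null MEF columns, and the WT MEF columns with tumor cells are mostly blue.

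Several replication genes were lower in tumor cells that had grown with null MEFs than in tumor cells alone. Of 40 members tested, 10 fell and none rose, against 9.6% of all tested genes lower and 10.1% higher. They were Rpa1 and Rpa2 of the single-strand binding complex, the primase and polymerase alpha subunits Prim1 and Pola2, the licensing factor Cdc6 and the GINS subunit Gins1, the clamp loader subunit Rfc5, cyclin E1 (Ccne1), the ribonucleotide reductase subunit Rrm1 and thymidylate synthase (Tyms). With WT MEFs as partners, 2 of 40 fell, Ccne1 and Rrm1, and none rose, against 4.77% of all tested genes lower and 7.04% higher. The median member difference was -0.29 with null MEFs and -0.15 with WT MEFs, beside -0.09 and -0.04 over all tested genes, and both comparisons share the arrays of tumor cells alone. In limma's fit no member was higher at an unadjusted p under 0.05 with either partner, while 18 were lower with null MEFs and 10 with WT MEFs. The share of all tested genes at that threshold was not counted, so these 2 counts have no background beside them. In these pooled RNA samples a smaller share of cells in S phase and less RNA per cell cannot be told apart.

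Rpa1, the large subunit of the single-strand binding protein, moved most. It measured 13.99 and 13.72 in tumor cells with null MEFs, 14.70 and 14.67 in tumor cells with WT MEFs and 14.97 and 14.85 in tumor cells alone. Both arrays with null MEFs were the lowest of all 14. The difference from tumor cells alone was -1.05 ± 0.12 (SE, adjusted p = 0.000148) with null MEFs. Ccne1, the cyclin that drives entry into S phase, measured 11.21 and 11.08 with null MEFs, 11.28 and 11.30 with WT MEFs and 11.78 and 11.77 alone. Its difference from alone was -0.63 ± 0.09 (adjusted p = 0.00089) with null MEFs and -0.49 ± 0.09 (adjusted p = 0.00645) with WT MEFs, and neither co-culture group overlapped with tumor cells alone. Rrm1, the large subunit of the enzyme that makes deoxynucleotides, measured 14.97 and 14.83 with null MEFs, 15.14 and 15.11 with WT MEFs and 15.41 and 15.62 alone, again with no overlap with tumor cells alone. It fell by 0.61 with null MEFs (adjusted p = 0.00327) and by 0.39 with WT MEFs (adjusted p = 0.0455). The call of Rrm1 with WT MEFs was lost when any 1 of 9 arrays was left out, with values between -0.4 and -0.28.

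The catalytic primase subunit Prim1 measured 14.21 and 14.24 in tumor cells with null MEFs and 14.74 and 14.82 in tumor cells alone (-0.56 ± 0.11, adjusted p = 0.00599). Pola2, a regulatory subunit of polymerase alpha, measured 9.92 and 9.58 with null MEFs against 10.25 and 10.37 alone (-0.56 ± 0.14, adjusted p = 0.0162). The licensing factor Cdc6 measured 9.78 and 9.45 with null MEFs against 10.55 and 10.07 alone (-0.69 ± 0.17, adjusted p = 0.0189). Rfc5 of the clamp loader measured 14.57 and 14.55 with null MEFs against 14.98 and 15.06 alone (-0.46 ± 0.11, adjusted p = 0.0128). In none of these 4 genes did the groups overlap. No gene of the helicase ring passed in either comparison with tumor cells alone. Mcm3 had the largest fall of the ring with null MEFs, at -0.50, and was at -0.15 with WT MEFs. Mcm7 was at -0.19 with null MEFs and 0.02 with WT MEFs. Mcm2 measured 13.55 and 13.41 with null MEFs, 13.43 and 13.48 with WT MEFs and 13.78 and 13.94 alone, so both arrays alone were above all 4 from co-culture. Mcm5 measured 15.72 and 15.50 with null MEFs, 15.69 and 16.35 with WT MEFs and 15.60 and 16.05 alone, with overlapping groups. Overlap was also seen in Mcm6, with 16.85 and 17.04 with null MEFs, 16.91 and 17.16 with WT MEFs and 17.03 and 17.22 alone. Likewise, Mcm4 measured 15.87 and 16.07 with null MEFs, 16.08 and 16.32 with WT MEFs and 15.97 and 16.38 alone. Pcna measured 16.36 and 15.71 with null MEFs, where B stood apart, 16.36 and 16.36 with WT MEFs and 16.20 and 16.30 alone. Mcm5 had the highest difference of any member with WT MEFs (0.20 ± 0.21) and Prim2 the lowest (-0.53 ± 0.39), and neither passed. With null MEFs the highest was Mcm10 (0.07 ± 0.14), which also did not pass.

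Set directly against each other, tumor cells with null MEFs and tumor cells with WT MEFs differed in 2 of 40 members, both lower with null MEFs, and in none that was higher, against 4.11% lower and 5.38% higher of all tested genes. These were Rpa1 (-0.83 ± 0.12, adjusted p = 0.00152) and Tyms (-0.59 ± 0.11, adjusted p = 0.00674). The 2 probes of Rpa1 did not move alike between the partners, at -2.08 and -0.17, as described below. Tyms, which makes the thymidylate that DNA needs, measured 8.88 and 8.77 in tumor cells with null MEFs, 9.39 and 9.45 with WT MEFs and 9.26 and 9.46 alone. Both null-partner arrays were the lowest of the 14, and the groups with WT MEFs and alone overlapped. Chaf1a, a subunit of the chromatin assembly factor, had the highest difference (0.31 ± 0.17) and did not pass.

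Signal of genes typical of the partner was also unequal between these groups. A set of 259 genes had levels in null MEFs from co-culture that were at least 32-fold those of tumor cells alone. Their median level in tumor cells with null MEFs, above that in tumor cells alone, was 9.82% and 24.4% of the level in those MEFs. Over 234 genes chosen likewise it was 7.46% and 7.42% in tumor cells with WT MEFs. Summed fibroblast markers measured 16.49 and 17.82 (log2) with null MEFs, 16.75 and 16.69 with WT MEFs and 14.6 and 14.72 in tumor cells alone. That share of the level in the profiled MEFs from co-culture was then subtracted for every gene. The MEFs that grew with these tumor cells had received mitomycin C, and their own levels of replication genes are not analysed here. How far the subtracted levels match theirs was not tested. After this subtraction, 6 members were lower with null MEFs and 1 with WT MEFs. Calls over all tested genes went from 5099 to 3489 with null MEFs and from 3058 to 1461 with WT MEFs. The members' median differences from tumor cells alone were then -0.35 with null MEFs and -0.11 with WT MEFs, beside -0.12 and -0.05 over all tested genes. Among members that no longer passed with null MEFs, Cdc6 was at -0.58 ± 0.40 and Pola2 at -0.53 ± 0.16. Their SEs before subtraction were 0.17 and 0.14, and the spread behind them is shared by all groups, the subtracted MEF arrays included. The part of MEF signal in these results was otherwise not tested. With slide as a block, since A and B lay on separate slides, 17 members passed with null MEFs, 4 with WT MEFs and 4 between the partners, all lower. The block also raised the calls over all tested genes, in the same order from 5099 to 6562, from 3058 to 4163 and from 2457 to 3307. Without tumor cells with null MEFs B, the array with the largest share of MEF signal, 5 members passed against tumor cells alone, and Cdc6, Pola2 and Rfc5 no longer did, at -0.53, -0.39 and -0.45. Cdc6 was also lost without tumor cells alone A (-0.46), and Pola2 and Rfc5 without tumor cells alone B (-0.5 and -0.42).

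Rpa1 is read by 2 probes, and they did not move alike. Probe A_51_P333159 (chr11:75114060-75114119, mm9) gave a scanner signal of 2.37 in tumor cells with null MEFs B, 4.48 and 4.41 with WT MEFs and 4.74 in tumor cells alone B, as log2 relative to the 75th percentile of the array. Probe A_55_P1964805 (chr11:75113898-75113957), a neighbour on the chromosome, gave 5.44 with null MEFs B, 5.64 and 5.57 with WT MEFs and 5.8 alone B. On the 12 sound arrays the first probe differed by -2.37 ± 0.23 (adjusted p = 0.00092 over 36560 probes) between tumor cells with null MEFs and alone, and the second by -0.36 ± 0.19 (adjusted p = 0.32). Each of these groups has 1 sound array, which is assumed to vary like the other groups. Between tumor cells with null and with WT MEFs the first probe differed by -2.08 and the second by -0.17. The first probe was also lower in null MEFs with tumor cells (3.9 and 3.53) than in null MEFs alone (4.52 and 4.43), where its adjusted p was 0.097. It was likewise lower in WT MEFs with tumor cells (4.05 and 3.97) than in WT MEFs alone (4.615 and 4.46), with an adjusted p of 0.138 in limma.

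**Figure D2:**
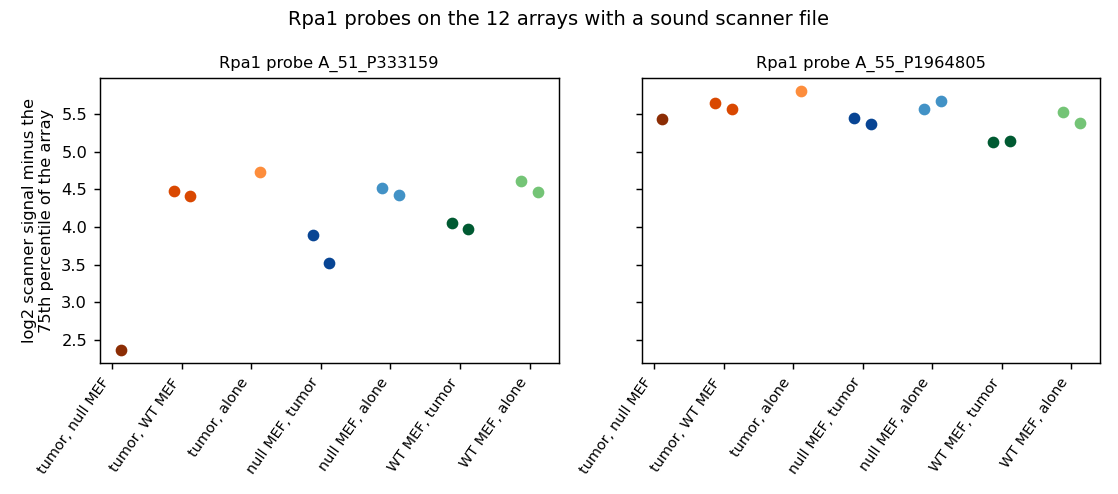
Log2 scanner signal relative to each array's 75th percentile (y axis) of the 2 Rpa1 probes in the 7 groups, 1 point per array with a sound scanner file. Probe A_51_P333159 drops to 2.37 in tumor cells with null MEFs, below every other array, while probe A_55_P1964805 stays between 5.12 and 5.8.

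**Figure D3:**
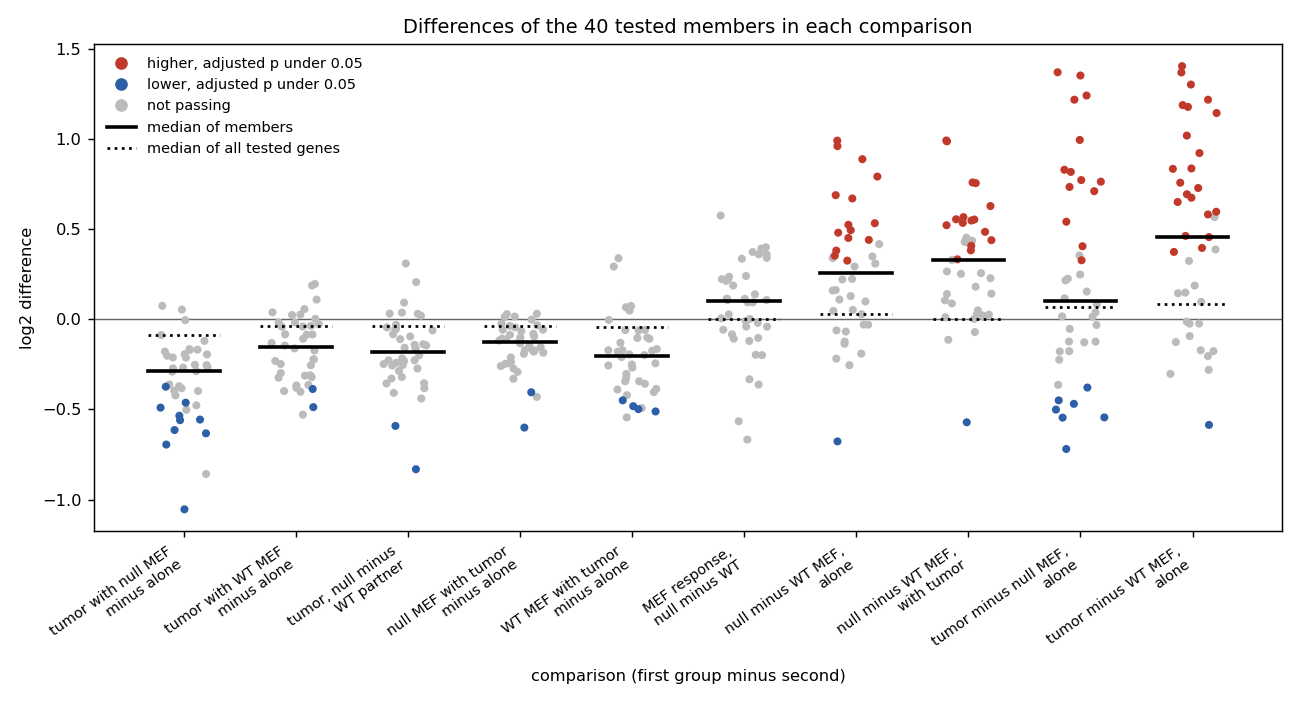
Log2 differences of the 40 tested members (points) in the 10 comparisons, coloured by whether they passed at an adjusted p under 0.05, with the median of the members (solid line) and of all tested genes (dotted line). The members lie mostly below 0 in the co-culture comparisons and mostly above 0 where null MEFs are set against WT MEFs.

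Many replication genes were higher in null MEFs than in WT MEFs, both alone and after co-culture. Alone, 15 of 40 members were higher and 1 lower in null MEFs, against 17.9% higher and 15.9% lower of all tested genes. After culture with tumor cells, 16 were higher and 1 lower, against 14.7% higher and 14.8% lower. The same 10 members were higher in both settings, 5 alone only and 6 after co-culture only. The median member difference was 0.26 alone and 0.33 after co-culture, beside 0.027 and 0.0026 over all tested genes. These MEF stocks differed in many genes besides, and stock and Hsf1 genotype cannot be told apart.

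The helicase ring took a large part in this. Mcm3 measured 15.23 and 14.90 in null MEFs alone and 14.22 and 13.98 in WT MEFs alone (0.96 ± 0.16, adjusted p = 0.00097). After co-culture it measured 15.00 and 14.78 in null MEFs and 14.02 and 13.79 in WT MEFs (0.99 ± 0.16, adjusted p = 0.00106). Each null array was above each WT array. Mcm7 measured 16.17 and 16.26 in null MEFs alone against 15.63 and 15.74 in WT MEFs alone, and 16.02 and 16.25 in null MEFs against 15.34 and 15.43 in WT MEFs after co-culture, with differences of 0.53 ± 0.12 (adjusted p = 0.00662) and 0.75 ± 0.12 (adjusted p = 0.000968). Mcm2 measured 13.76 and 13.46 in null and 13.19 and 13.08 in WT MEFs alone, and passed in both settings (0.48 ± 0.14 alone and 0.48 ± 0.14 after co-culture). Mcm6 measured 17.19 and 17.12 in null and 16.56 and 16.76 in WT MEFs alone, and passed alone (0.49 ± 0.15, adjusted p = 0.0294). Mcm4 passed after co-culture, where it measured 16.55 and 16.56 in null MEFs and 15.84 and 16.02 in WT MEFs (0.63 ± 0.15, adjusted p = 0.00986). Mcm5 passed in neither, with 15.11 and 15.01 in null and 14.95 and 14.85 in WT MEFs alone. Of the 13 licensing and helicase genes, 7 were higher alone and 6 after co-culture.

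Other replication fork genes followed. Pola1, the catalytic subunit of polymerase alpha, measured 12.92 and 12.55 in null MEFs alone and 12.02 and 11.68 in WT MEFs alone (0.89 ± 0.16, adjusted p = 0.00125). Pcna, the sliding clamp, measured 16.56 and 16.40 in null MEFs and 15.41 and 15.96 in WT MEFs, where the 2 WT arrays were far apart (0.79 ± 0.23, adjusted p = 0.0227). Fen1, the nuclease that trims Okazaki fragments, measured 14.50 and 14.52 in null MEFs against 14.07 and 13.91 in WT MEFs alone, and 14.31 and 14.22 in null MEFs against 13.52 and 13.49 in WT MEFs after co-culture (0.76 ± 0.13, adjusted p = 0.00113). Rfc5 measured 14.99 and 15.02 in null MEFs against 14.56 and 14.57 in WT MEFs alone (0.44 ± 0.11, adjusted p = 0.00835) and differed by 0.55 ± 0.11 after co-culture. The helicase activator Mcm10 measured 12.96 and 12.84 in null and 12.27 and 12.19 in WT MEFs alone (0.67 ± 0.14, adjusted p = 0.00398). Chaf1b of the chromatin assembly factor measured 15.58 and 15.90 in null MEFs and 14.63 and 14.88 in WT MEFs after co-culture, the highest member difference there (0.99 ± 0.16, adjusted p = 0.001). Alone it did not pass, at 0.42 ± 0.16. Dut, which removes uracil nucleotides, had the highest difference alone (0.99 ± 0.28, adjusted p = 0.0205), and Cdt1 differed by 0.55 ± 0.10 after co-culture (adjusted p = 0.00194).

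One member ran the other way. Rrm2, the small and S-phase-regulated subunit of ribonucleotide reductase, measured 14.50 and 14.64 in null MEFs alone and 15.18 and 15.32 in WT MEFs alone (-0.68 ± 0.16, adjusted p = 0.00842). After co-culture it measured 14.49 and 14.18 in null MEFs and 14.90 and 14.91 in WT MEFs (-0.57 ± 0.16, adjusted p = 0.0235), but there its direction turned to 0.31 once the share of tumor cell signal was subtracted. Its partner subunit Rrm1 did not pass in either setting (-0.19 ± 0.11 alone and 0.05 ± 0.11 after co-culture). Of the 12 members with the E2F letters in their promoter, 5 were higher in null MEFs alone, with a median difference of 0.33, and of the 21 with a promoter window but no match, 9 were higher and 1 lower, with a median of 0.31. Leaving out any 1 of the 4 arrays of MEFs grown alone took the count of members passing from 16 to 8 or 9. After co-culture it went from 17 to 8 without WT MEFs with tumor cells A, 9 without B and 11 without null MEFs with tumor cells B. Among the genes named, Dut was lost without WT MEFs alone B (0.87) or either array of null MEFs alone (0.88 and 1.1), Mcm7 alone without WT MEFs A (0.48) or null MEFs B (0.49), Fen1 alone without WT MEFs B (0.44), and Rfc5 alone without null MEFs B (0.43). Rrm2 alone was lost without WT MEFs B (-0.6) or null MEFs A (-0.61). After co-culture, Mcm10 was lost without WT MEFs A (0.52) or null MEFs B (0.33), Mcm4 without WT MEFs A (0.54), and Rrm2 without either WT array (-0.58 and -0.56) or null MEFs B (-0.41).

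**Figure D4:**
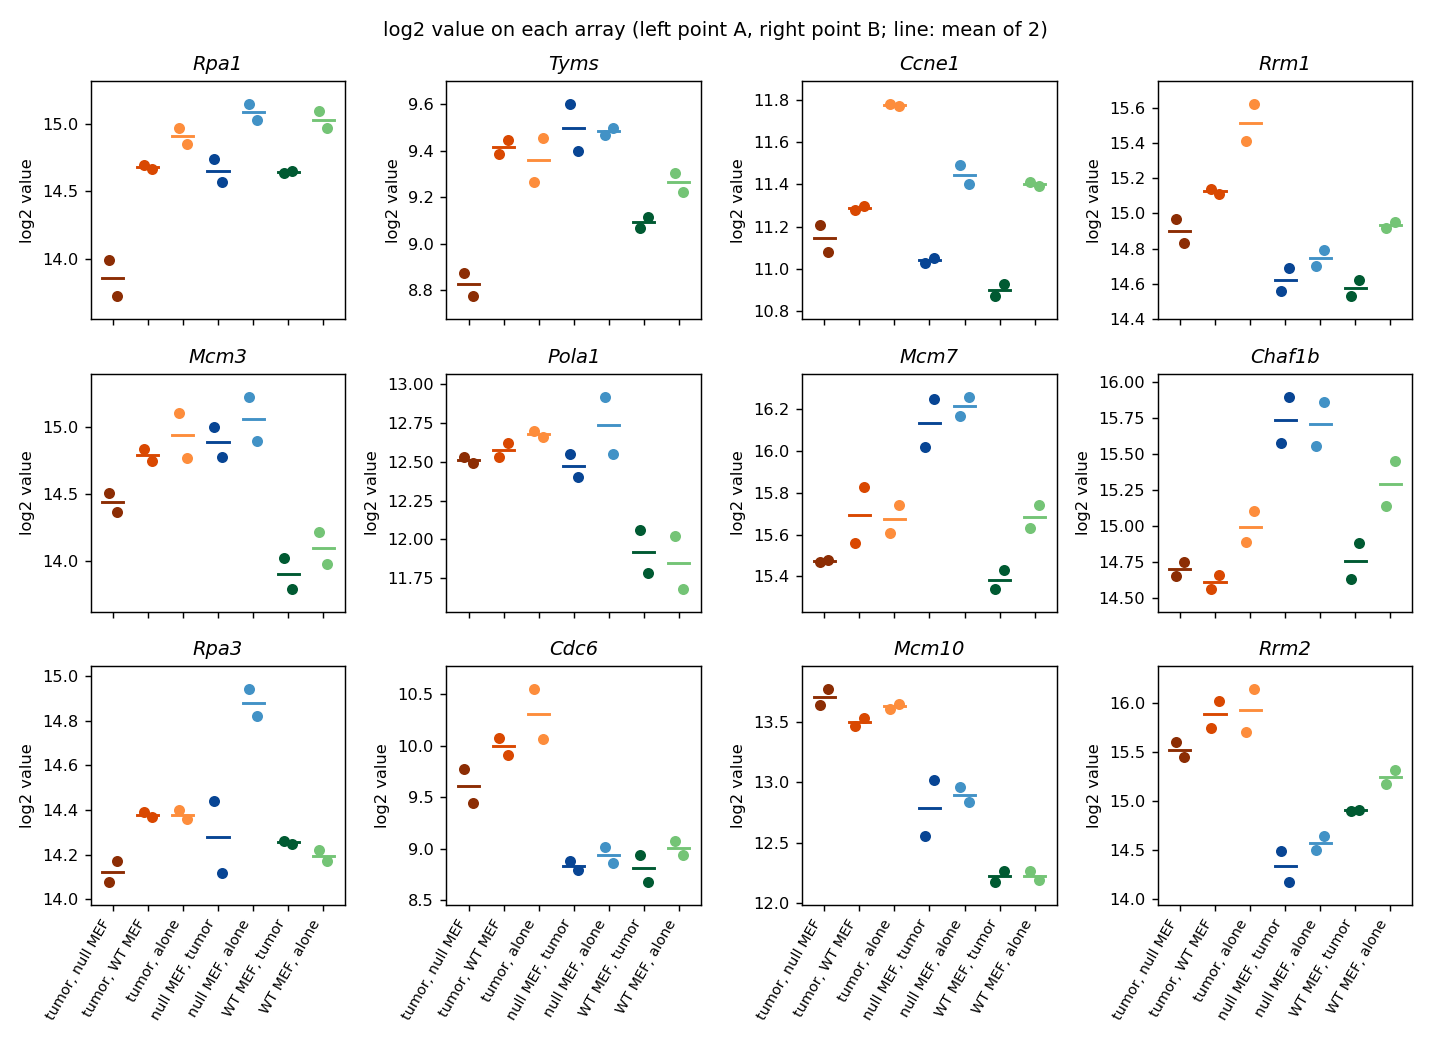
Log2 value of 12 members on each array (points, A left and B right, with the mean of 2 as a line) in the 7 groups. Rpa1 and Tyms are lowest in tumor cells with null MEFs, Ccne1 is lower in each co-culture group than in the same cells alone, and Mcm3, Mcm7 and Chaf1b are higher in null MEFs than in WT MEFs.

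Co-culture with tumor cells was followed by few called changes in the MEFs themselves. In null MEFs, 2 of 40 members fell and none rose, against 0.332% lower and 2.81% higher of all tested genes. In WT MEFs, 4 of 40 fell and none rose, against 4.2% lower and 6.31% higher. At an unadjusted p under 0.05, 4 were lower in null MEFs and 15 in WT MEFs, and none was higher. All tested genes were not counted at that threshold. Ccne1 was the 1 member that passed in both, as it did in both tumor cell comparisons. It measured 11.03 and 11.05 in null MEFs with tumor cells and 11.49 and 11.40 in null MEFs alone (-0.41 ± 0.09, adjusted p = 0.0405). In WT MEFs it measured 10.87 and 10.93 with tumor cells and 11.41 and 11.39 alone (-0.50 ± 0.09, adjusted p = 0.00566). In both genotypes every co-culture array was below every array of MEFs alone. Rpa3, the small subunit of the single-strand binding complex, measured 14.44 and 14.12 in null MEFs with tumor cells and 14.94 and 14.82 in null MEFs alone (-0.60 ± 0.12, adjusted p = 0.0149), while in WT MEFs it measured 14.26 and 14.25 with tumor cells and 14.22 and 14.17 alone. The other members that fell in WT MEFs were Prim1, with 14.52 and 14.59 with tumor cells against 15.08 and 15.05 alone (-0.51 ± 0.11), the clamp loader's large subunit Rfc1, with 14.06 and 14.12 with tumor cells against 14.49 and 14.59 alone (-0.45 ± 0.10), and Fen1 (-0.48 ± 0.13). Chaf1b was the lowest of all in WT MEFs, at -0.54 ± 0.16, and did not pass (adjusted p = 0.0619). Pcna was the highest at 0.34 ± 0.23, from 16.25 and 15.80 with tumor cells and 15.41 and 15.96 alone, so its 2 slides disagreed in sign.

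The MEF responses of the genotypes were then compared as a difference of differences. No member passed higher or lower, against 1.07% and 1.96% of all tested genes. At an unadjusted p under 0.05 there were 4 of 40, a threshold at which all tested genes were not counted. Rpa3 came nearest, at -0.67 ± 0.16 (adjusted p = 0.0606), and Chaf1b was the highest at 0.57 ± 0.23 (adjusted p = 0.311). With slide as a block both passed, 1 in each direction, and Rpa3 also passed without null MEFs with tumor cells A, at -0.83. The block likewise raised the count in WT MEFs to 9, all lower. Over all tested genes it raised the calls from 784 to 1052 for the difference of responses and from 2722 to 3618 in WT MEFs. The WT MEF count went from 4 to 0 without WT MEFs with tumor cells A and to 1 without any 1 of the other 3 WT MEF arrays. The null MEF count of 2 dropped to 0 without null MEFs with tumor cells B or either array of null MEFs alone, and to 1 without any 1 of 9 other arrays. It stayed at 2 only without an array of tumor cells with null MEFs. Ccne1 in WT MEFs was lost without WT MEFs with tumor cells A (-0.47). In null MEFs its call was kept only when an array of tumor cells with null MEFs was left out. After subtraction of tumor cell signal Ccne1 was at -0.48 in null MEFs and did not pass (adjusted p = 0.0553 in limma). On the sound scanner arrays its 2 probes were at -0.33 and -0.42 in null MEFs and -0.48 and -0.75 in WT MEFs. Neither probe passed there. In tumor cells, where 2 groups hold 1 sound array, the probes were at -0.88 and -0.94 with null and -0.60 and -1.05 with WT MEFs. These tumor cell values are sizes only and add no call.

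Sorted MEFs carried unequal amounts of signal from genes typical of tumor cells. Null MEFs with tumor cells showed 90 genes chosen for levels in tumor cells alone of at least 32-fold those in null MEFs alone at a median of 6.89% and 7.73% of the tumor cell level. For 77 genes chosen likewise, WT MEFs with tumor cells showed 35.2% and 34.3%, with quartiles between 20.4% and 52.9%. Summed epithelial markers measured 14.78 and 15.34 in null MEFs with tumor cells and 12.06 and 12.32 in null MEFs alone. In WT MEFs they measured 16.18 and 16.39 with tumor cells and 10.5 and 10.64 alone. Of the 14 epithelial markers, 12 and 12 were well above background in null MEFs with tumor cells and 11 and 11 in WT MEFs with tumor cells. After subtraction of that share, 29 of 40 members fell in WT MEFs, with a median of -0.78, and 1 in null MEFs, with a median of -0.19. Calls over all tested genes changed as well. In WT MEFs they went from 2722 to 5298, 1301 of these higher, with a median of -0.14. In null MEFs they went from 814 to 557, 437 of these higher, with a median of -0.06. The lowest members were Cdc6, at -3.69 in WT MEFs after subtraction and -0.20 before it, and Mcm10, at -3.34 after subtraction and -0.004 before it. After subtraction 29 members were higher in null than in WT MEFs with tumor cells and 9 differed in response, all higher in null MEFs. Of the 25896 genes tested, 9845 then differed between these MEFs, 6180 of them higher in null MEFs. In response 1413 differed, 1087 of them higher. The subtracted values rest on 1 share per array, and any below the lowest value of an array was set to it. In Cdc6 and Mcm10 the subtraction took most of the WT MEF signal, so their values after it rest on small remainders. How much of the signal came from tumor cells in the sorted MEFs was not tested.

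**Figure D5:**
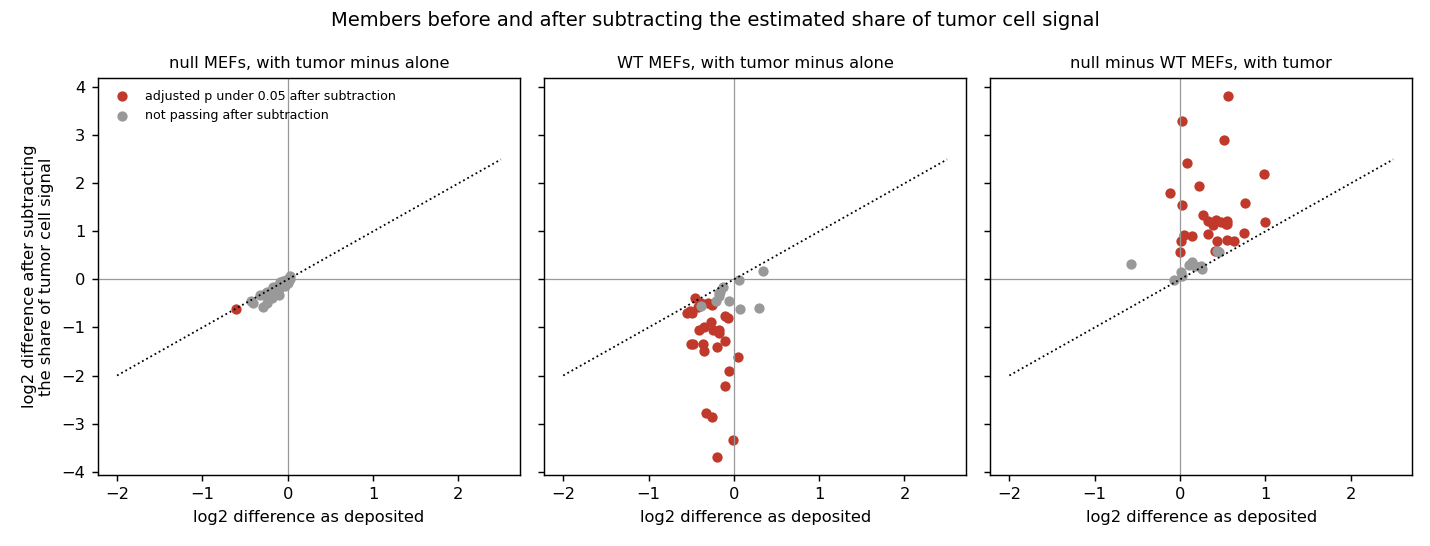
Log2 difference of the 40 tested members after subtraction of the estimated share of tumor cell signal (y axis) against the difference as deposited (x axis), for 3 comparisons, with the dotted line marking equality. Null MEFs stay near the line, while in WT MEFs with tumor cells most members fall below it, down to -3.69 for Cdc6. That Cdc6 value rests on a small remainder of signal.

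Grown alone, tumor cells had higher levels of many replication genes than WT MEFs, while against null MEFs the members lay nearer to the share and median of all genes. Against null MEFs, 14 of 40 members were higher and 7 lower in tumor cells, beside 27.3% higher and 25.4% lower of all tested genes, and their median difference was 0.099 beside 0.065 over all tested genes. Against WT MEFs, 22 were higher and 1 lower, beside 27.8% of all tested genes higher and 23.6% lower, with a median of 0.46 beside 0.084. Both comparisons share the arrays of tumor cells alone, and the MEF arrays in them also serve in the comparisons of genotype and of co-culture. Cdc6 measured 10.55 and 10.07 in tumor cells, 9.02 and 8.86 in null MEFs and 9.08 and 8.94 in WT MEFs, with differences of 1.37 ± 0.17 (adjusted p = 6.81e-05) and 1.30 ± 0.17 (adjusted p = 0.000102). Rrm2 measured 15.71 and 16.14 in tumor cells and stood 1.35 ± 0.16 above null MEFs (adjusted p = 4.97e-05). Thymidine kinase (Tk1), which salvages thymidine, measured 15.48 and 15.63 in tumor cells, 14.40 and 14.28 in null MEFs and 14.37 and 14.37 in WT MEFs. Gins1 measured 13.32 and 13.27 in tumor cells, 12.24 and 12.36 in null MEFs and 11.99 and 12.16 in WT MEFs, and Mcm10 measured 13.61 and 13.65 in tumor cells, where it had the highest difference from WT MEFs (1.40 ± 0.14, adjusted p = 1.3e-05). Uhrf1, which guides maintenance methylation to newly made DNA, measured 12.08 and 12.10 in tumor cells, 11.33 and 11.20 in null MEFs and 10.88 and 10.95 in WT MEFs. In each of these genes both tumor cell arrays were above all 4 arrays of MEFs grown alone.

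Pola2 differed by 0.71 ± 0.14 from null MEFs and 1.02 ± 0.14 from WT MEFs, Rrm1 by 0.77 ± 0.11 and 0.58 ± 0.11, and Rpa2 by 0.40 ± 0.10 and 0.76 ± 0.10, all of which passed. The 7 members lower in tumor cells than in null MEFs were Chaf1b (-0.72 ± 0.16, adjusted p = 0.00354), Mcm4, Mcm7, Gins4, Rpa3, Prim1 and Rfc1. Chaf1b measured 14.89 and 15.10 in tumor cells, 15.56 and 15.86 in null MEFs and 15.14 and 15.45 in WT MEFs. Rfc1 measured 13.99 and 13.91 in tumor cells, 14.31 and 14.50 in null MEFs and 14.49 and 14.59 in WT MEFs (-0.59 ± 0.10, adjusted p = 0.000582). With another scaling of the value table, 7 members were lower against null MEFs after quantile normalization and 5 after centring on array medians, and 1 was lower against WT MEFs under each. On the 12 sound scanner arrays scaled by the 75th percentile, which changes the source, the arrays and the scaling together and where the median of all genes moved to 0.26 against null MEFs and 0.25 against WT MEFs, 16 members were higher and none lower against null MEFs, and 25 higher and none lower against WT MEFs. With normexp and quantile normalization of the same arrays the counts were 11 higher and 4 lower against null MEFs and 14 higher and 1 lower against WT MEFs.

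Other genes of the pathway, from lists chosen with earlier results of these data known, were counted beside the members. Of 39 further replication genes tested, 14 fell in tumor cells with null MEFs against alone, those with the smallest adjusted p being Chtf18, Tipin, Asf1b and Exo1, and 2 fell with WT MEFs (Cdc45 and Chtf18). Of all tested genes, 9.6% and 4.77% were lower in these 2 comparisons. The medians of the 39 were -0.31 and -0.18. Between null and WT MEFs alone, 15 were higher and 1 lower, beside 17.9% and 15.9% of all tested genes. After co-culture 18 were higher and 3 lower, beside 14.7% and 14.8%. Among those higher was the mismatch repair gene Msh6 (0.77 ± 0.11 alone and 0.90 ± 0.11 after co-culture). Tumor cells were above WT MEFs in 27 and below in 3, beside 27.8% and 23.6% of all tested genes. The histone chaperone Nasp was the 1 gene of this list lower in tumor cells with null than with WT MEFs (-0.51 ± 0.11, adjusted p = 0.0129), beside 4.11% of all tested genes. Its call was lost (-0.44 and -0.43) when replicate B of either group was left out. Of 25 mitosis genes tested, 6 fell in tumor cells with null MEFs and 2 (Mybl2 and Foxm1) with WT MEFs, beside 9.6% and 4.77% of all tested genes. In null MEFs alone 5 were higher and 1 lower than in WT MEFs alone, near the 17.9% higher of all tested genes and beside 15.9% lower. After co-culture 2 were higher and 2 lower in null than in WT MEFs, beside 14.7% higher and 14.8% lower, with a median of 0.028. Tumor cells alone were above null MEFs in 19 of them, beside 27.3%, and above WT MEFs in 17, beside 27.8%. Tpx2, a spindle assembly factor, was the 1 mitosis gene that differed between tumor cells with null and with WT MEFs (-0.35 ± 0.10, adjusted p = 0.0438), and subtraction of MEF signal or leaving out any 1 of 11 arrays ended the call.

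Genes that govern E2F and RB gave a mixed picture over 28 tested. Between null and WT MEFs alone, 7 were higher and 8 lower, beside 17.9% and 15.9% of all tested genes. Cyclin D1 (Ccnd1), an activator of the kinases that inactivate RB, measured 10.15 and 10.06 in null MEFs alone and 14.74 and 14.60 in WT MEFs alone (-4.56 ± 0.10), while the cyclin-dependent kinase inhibitor Cdkn1c stood 3.42 ± 0.31 and the ubiquitin ligase subunit Skp2 1.56 ± 0.12 above WT MEFs. Cdkn1c measured 9.27 and 10.42 in tumor cells with null MEFs, 6.10 and 6.47 with WT MEFs and 4.99 and 4.92 alone. Its difference between the partners passed as deposited (3.56 ± 0.31, adjusted p = 4.1e-05) and was -0.04 after the estimated share of MEF signal was subtracted. The related inhibitor Cdkn1a measured 11.02 and 11.54 in tumor cells with null MEFs and 10.55 and 10.41 with WT MEFs (0.80 ± 0.21, adjusted p = 0.0396), and this call was lost without any 1 of 9 arrays, with values between 0.55 and 0.87. E2f1, the member that encodes an E2F factor itself, measured 13.26 and 13.27 in tumor cells with null MEFs, 13.28 and 13.37 with WT MEFs and 13.61 and 13.77 alone, and did not pass in either co-culture comparison.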

How the data were processed

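Expression was measured in 7 groups of 2 one-colour Agilent arrays (design 028005, 59305 spots, 55681 probes), with 0.5 ug of RNA labelled for each, per the labels' protocols. Per the file headers, the scanner intensity values come from Feature Extraction 10.1.1.1 with background subtracted and no scaling between arrays. The submitters' processing notes name version 9.1. The authors' value table holds deposited log2 values for 36413 gene names beside 140 control lines. Its array medians lay between 6.34 and 6.4, and how the authors scaled it and combined the probes of a gene is not given in the sources used here. It was used in place of the scanner values because 2 scanner files were unsound.

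Names were tested when, by at least 1 of their spots, they were well above background on all sound arrays of at least 1 group. Group means were fitted to the table with limma 3.58.1 (R 4.3.3; lmFit and eBayes, 7 residual degrees of freedom), with Benjamini-Hochberg adjustment over the 25896 names tested and a threshold of 0.05. The fit was tested on simulated data. Tables were read with Python 3.11.15 and pandas 2.3.3, and figures drawn with matplotlib 3.10.9. Replicate letters coincide with slides. Over 21 pairs of groups, same-letter deviations from the group means correlated by 0.09 to 0.6 (median 0.3), above 0.1 in 20, and a fit with the slide as a block was an alternative. Partner signal was estimated as the median share over genes at least 32-fold higher in the partner and subtracted on the linear scale as another. Results below the lowest value of an array were set to that value. For tumor cells the partner levels came from the profiled MEFs, while their actual partners had received mitomycin C. Further alternatives were scanner values with 75th percentile scaling, normexp (offset 50) with quantile normalization, quantile normalization or median centring of the table, no filter, another variance model, each cell type alone, and each array left out. Named were members passing with the same sign on both slides, up to 8 in a comparison by adjusted p, with the highest and lowest member, and up to 4 passing genes of each other list by adjusted p. A few further members are given to complete a complex or an overlap and were chosen after their values were seen. The members and lists were chosen with earlier results of these data known.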

Additional observations from a re-analysis of the deposited data

Results flagged for a closer look

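Among the members and the lists of other replication, E2F and RB, and mitosis genes, 6 differed by partner in tumor cells. That is, the co-culture response with null MEFs and the response with WT MEFs were unequal in limma's test of the difference. In that order of lists they were 2 of 40, 1 of 39, 2 of 28 and 1 of 25 genes tested. Of all tested genes, 4.11% were lower and 5.38% higher in this comparison. Rpa1 was lower with null MEFs by a log2 difference of -0.832, with both arrays below every other array. On the sound scanner arrays its probe A_51_P333159 was at -2.08 and its probe A_55_P1964805 at -0.17, so the probes did not move alike. For Tyms the difference was -0.592, again with both arrays the lowest. Nasp gave -0.514. The mitosis gene Tpx2 gave -0.354, a call lost without any 1 of 11 arrays, with values between -0.40 and -0.28. The kinase inhibitors were higher with null MEFs, Cdkn1c by 3.56 and Cdkn1a by 0.802. After subtraction of MEF signal Cdkn1c was at -0.042 and did not pass (adjusted p = 0.926 in limma), and null MEFs alone stood 3.42 above WT MEFs alone in this gene. The Cdkn1a call was lost without any 1 of 9 arrays, with values between 0.55 and 0.87. The 2 responses share the arrays of tumor cells alone. In MEFs, 2 of the 28 genes tested of the E2F and RB list had unequal responses to tumor cells, 1 in each direction. Of all tested genes, 1.07% were higher and 1.96% lower there. Ccnd1 gave a null minus WT difference of 2.4, with a response of 3.22 in null MEFs and 0.82 in WT MEFs. E2f2 gave -1.18, and this value was lost without any 1 of 7 MEF arrays, with values between -1.28 and -0.97. After subtraction of tumor cell signal E2f2 turned to 4.54 and passed (adjusted p = 0.000997 in limma). Its response in WT MEFs was 0.66 before subtraction and -5.18 after it, so little of the signal remained. Results below the lowest value of an array were set to it, so the 4.54 rests on a small remainder or on that floor. The groups hold 2 arrays each, so no single array could be tested as an outlier.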

How the results depend on the processing

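Counts below are of members passing, in either direction, where an alternative moved them by over 1.5 times, and the cause was not tested unless a value shows it. Calls over all tested genes moved with the alternatives too. For WT MEFs against alone they went from 2722 to 5298 after subtraction of partner signal. For tumor cells with null MEFs against alone they went from 5099 to 6562 with slide as a block. Comparisons are named by their groups. With all 14 scanner files, 2 of them unsound, 0 members passed in any comparison. With the 12 sound scanner files scaled by the 75th percentile, where 2 groups have 1 array, the counts were 0 for tumor cells with WT MEFs against alone, 1 for tumor cells with null against WT MEFs, 0 for null MEFs and 1 for WT MEFs with tumor cells against alone, 6 for null against WT MEFs alone and 7 after co-culture. With normexp and quantile normalization they were 6 for tumor cells with null MEFs, 0 with WT MEFs, 4 between partners, 1 for null MEFs against alone, 10 for null against WT MEFs alone and 15 for tumor cells against WT MEFs. After subtraction of partner signal they were 6 for tumor cells with null MEFs, 1 with WT MEFs, 1 for null MEFs and 29 for WT MEFs against alone, 8 for null against WT MEFs alone, 29 after co-culture and 9 for the difference of responses. No array of MEFs alone was altered by subtraction and the differences between them stayed the same. The count of 8 there reflects only the spread shared by all groups and the adjustment. The replicate block (slide) gave 17 for tumor cells with null MEFs, 4 with WT MEFs, 4 between partners, 9 for WT MEFs against alone and 2 for the difference of responses, and 65 of 68 named differences kept their call under it. With each cell type fitted alone, which uses fewer arrays, the counts were 3 for tumor cells with null MEFs, 0 with WT MEFs, 1 between partners and 0 for null MEFs against alone. Without the filter on dim probes, 1 passed for tumor cells with WT MEFs and 1 for null MEFs against alone. For tumor cells with WT MEFs, quantile normalization gave 1 and median centring 4. Trend and robust settings gave 1 for the difference of responses. Leaving out each array in turn gave counts of 5 to 11 for tumor cells with null MEFs against alone, 1 to 3 for tumor cells with WT MEFs against alone, 2 to 3 for tumor cells with null against WT MEFs, 0 to 2 for null MEFs with tumor cells against alone and 0 to 5 for WT MEFs with tumor cells against alone. It gave 8 to 16 for null against WT MEFs alone, 8 to 17 for null against WT MEFs after co-culture, 0 to 1 for the difference of responses, 21 to 25 for tumor cells against WT MEFs and 16 to 23 for tumor cells against null MEFs. Directions turned round with all 14 scanner files, where the following named differences were measured. For tumor cells with WT MEFs against alone, Ccne1 was 1.35 and Rrm1 was 2.53. For tumor cells with null MEFs against alone, Rrm1 was 1.11, Prim1 was 0.0036 and Rfc5 was 0.77. For tumor cells against WT MEFs, Mcm10 was -0.76, Uhrf1 was -0.47, Rpa2 was -0.0053 and Tk1 was -0.73. For tumor cells against null MEFs, Tk1 was -0.72, Rrm1 was -1.80, Uhrf1 was -0.81 and Mcm10 was -1.46. For tumor cells with null against WT MEFs, Cdkn1a was -0.77. After subtraction the sign turned for Rrm2 (0.31, null against WT MEFs after co-culture), Cdkn1c (-0.042, tumor cells with null against WT MEFs), E2f2 (4.54, the difference of responses). The E2f2 value rests on WT MEF values from which most of the signal had been subtracted. Of 68 named differences, 45 kept call and direction whichever array was left out, 22 lost the call with at least 1 array left out and 0 reversed.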

Other observations

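Hsf1 was itself unequal outside the genotype comparison. In tumor cells it measured 12.44 and 12.29 with null MEFs, 12.78 and 12.72 with WT MEFs and 12.85 and 12.81 alone. The difference between tumor cells with null MEFs and alone was -0.46, and it passed in limma. Null MEFs with tumor cells stood 0.58 above null MEFs alone in the same gene, which also passed. By the estimate from partner genes, tumor cells with null MEFs carried 9.82% and 24.4% of MEF signal and null MEFs with tumor cells 6.89% and 7.73% of tumor cell signal. After subtraction the Hsf1 differences were -0.26 in tumor cells and 0.077 in null MEFs, and neither passed (adjusted p = 0.191 and 0.9998 in limma).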
